A study of Mus musculus with 12 samples.

Results

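Solute carriers are the large set of membrane proteins, named Slc by family and number, that move amino acids, sugars, ions, metals and vitamins across the cell surface and the membranes of organelles. Members were taken by symbol, as genes whose name has the form Slc, a family number, a and a second number. Of the 12955 genes in the table, 207 symbols had that form. The names left out were Slc2a1, Slc2a3, Slc16a3, Slc7a5, Slc3a2, Slc7a11 and Slc22a18. Of these, 6 were in the table, and 201 genes remained. Counts and rankings by class below do not cover the genes left out. Of these 201 genes, 126 reached 5 FPKM (fragments per kilobase of transcript, scaled to the mapped fragments of the library) or more in at least 2 of the 12 libraries and are described here. The other 75 did not, and 12 of those stayed below 1 FPKM in every library. Just inside that limit the second-highest value was 5.18 FPKM for Slc22a5, 5.25 for Slc1a4 and 5.30 for Slc12a9, and just outside it was 4.76 for Slc45a3, 4.75 for Slc30a3 and 4.73 for Slc22a17.

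By substrate the 126 genes were 18 of 33 for amino acids and peptides, 8 of 16 for sugars, 4 of 5 for nucleotide sugars, 18 of 25 for metals and heme, 28 of 38 of the Slc25 family of mitochondrial carriers, 16 of 31 for inorganic ions and 30 of 48 for other organic solutes. A further 4 have the name but are not transporters, among them Slc9a3r1 and Slc9a3r2, scaffold proteins, which leaves 122 transporters. The label holds for those 122, by the family each belongs to.

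The libraries were poly(A)-enriched RNA of mouse primordial germ cell-like cells (PGCLCs), which are cultured counterparts of the precursors of sperm and eggs. The cells derived from J1 male embryonic stem cells, grew as embryoid bodies and were sorted with antibodies to CD61 and SSEA1. At day 2 there were EV and OE cells, cells kept in DMSO for 2 days and cells kept in dTAG13 for 2 days, and at day 6 there were EV and OE cells, with 2 libraries in each of the 6 groups. The study concerns Tex10, a protein of the nucleus with a part in ribosome maturation. EV and OE are not spelled out in the labels, and no vector, clone or tagged allele is described in them. No treatment is recorded for EV and OE cells. DMSO is the solvent of dTAG13, a small molecule that marks proteins with a matching tag for destruction. Nothing states that the 2 libraries of a group came from separate cultures, so p-values measure the spread between libraries, which may be technical.

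Amino acid carriers differ in what they couple to. The Slc7 exchangers and cationic carriers, the Slc38 sodium-coupled neutral carriers, the Slc1 glutamate and neutral carriers and the Slc6 sodium- and chloride-coupled carriers together set the supply for protein synthesis and for nutrient sensing. Slc25 proteins exchange nucleotides, phosphate, acylcarnitine and amino acids across the inner mitochondrial membrane. Slc39 (ZIP) proteins bring zinc and other metals into the cytosol, Slc30 (ZnT) proteins remove zinc from it, and ferroportin, encoded by Slc40a1, is the known iron exporter of mammalian cells.

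Summed FPKM per library ran from 550230 to 673435, of which the 126 genes made up 0.927% to 1.13%. The Tex10 transcript was higher in OE cells (403 and 378 FPKM against 119 and 145 with EV on day 2; 259 and 269 against 65.7 and 81.5 on day 6), and dTAG13 libraries held 45.2 and 36.5 FPKM against 61.7 and 56.8 for DMSO. A degrader acts on protein, which these data do not show. One library stands apart. In dTAG13 library 1, 2008 genes (15.5%) were listed at 0, among them 7 of the 126, against 18 to 127 genes and 0 of the 126 in each other library. The median SD of the 126 genes within the dTAG13 pair was 0.418 on the log2(FPKM + 1) scale, against 0.0776 to 0.0936 in the other 5 pairs. One model supplied the spread for all comparisons, so the count of members that passed in each comparison is also given without that library. All 12 PGCLC markers checked were in the table, at 1212 to 1782 FPKM in sum. Itgb3, the gene for CD61, read 0 to 4.39 FPKM. Of the markers for other cell types, Tubb3 (42.7 to 125 FPKM) and Pecam1 (31.4 to 112) were the abundant ones, and the others stayed at or below 12.6 FPKM in each library. Fewer cells of a type and less RNA per cell cannot be told apart in such bulk libraries.

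Upstream sequences are shown for members that were lower with dTAG13, since amino acid carriers were the class with most members lower there. By an adjusted p below 0.05, 10 of 18 were lower, where 12.2% of all genes tested passed and 8.21% were lower. In a fit of only the DMSO and dTAG13 groups no member passed. The sequences come from RefSeq (GRCm38.p6, the build of mm10), which held a promoter for 90 of the 126 genes. Of the 12 genes that are either amino acid carriers lower with dTAG13 or among the 6 largest falls there, 6 had an entry. Of those 6 windows, 4 held no annotated exon, and that of Slc38a5 is cut to the stretch beyond its exons. Each sequence reads 5′ to 3′ toward the start of transcription, in lower case, with the E-box (CACGTG) or the core of an amino acid response element (TGATGNAA) in capitals.
Slc7a6, chr8:106168604-106168853, plus strand: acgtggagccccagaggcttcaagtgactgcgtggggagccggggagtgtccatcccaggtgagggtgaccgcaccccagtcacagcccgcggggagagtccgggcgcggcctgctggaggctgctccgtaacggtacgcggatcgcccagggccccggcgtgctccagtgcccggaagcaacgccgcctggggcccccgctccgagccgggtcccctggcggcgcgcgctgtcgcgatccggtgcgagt
Slc1a3, chr15:8710808-8711057, minus strand: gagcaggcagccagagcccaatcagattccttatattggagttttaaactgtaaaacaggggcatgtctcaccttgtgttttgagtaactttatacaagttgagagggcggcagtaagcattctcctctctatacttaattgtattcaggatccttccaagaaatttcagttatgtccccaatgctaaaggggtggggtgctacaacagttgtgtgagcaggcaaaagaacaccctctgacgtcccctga
Slc38a5, chrX:8271261-8271380, plus strand: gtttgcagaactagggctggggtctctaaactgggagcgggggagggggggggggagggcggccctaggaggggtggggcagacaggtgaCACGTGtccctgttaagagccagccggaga
Slc7a7, chr14:54417945-54418194, minus strand: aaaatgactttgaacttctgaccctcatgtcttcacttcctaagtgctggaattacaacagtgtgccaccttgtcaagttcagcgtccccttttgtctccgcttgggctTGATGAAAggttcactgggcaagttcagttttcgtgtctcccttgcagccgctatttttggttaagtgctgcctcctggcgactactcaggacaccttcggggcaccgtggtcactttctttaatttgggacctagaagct
Slc16a1, chr3:104638414-104638663, plus strand: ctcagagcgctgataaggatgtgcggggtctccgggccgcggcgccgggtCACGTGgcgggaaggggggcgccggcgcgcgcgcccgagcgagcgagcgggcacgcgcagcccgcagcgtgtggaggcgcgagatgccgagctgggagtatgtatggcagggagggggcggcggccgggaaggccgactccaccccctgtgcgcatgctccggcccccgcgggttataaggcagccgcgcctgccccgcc
The E-box is the sequence bound by basic helix-loop-helix factors such as MYC and TFEB, and the response element core is the sequence bound by ATF4 dimers. The E-box began 30 bases before the start in Slc38a5 and 200 bases before it in Slc16a1, and the response element core began 141 bases before the first of 5 listed starts in Slc7a7. Neither motif occurred in the windows of Slc7a6 and Slc1a3.

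Searched on both strands of the 250 bases before the first listed start, the E-box was present in 14 of 90 members (15.6%), against 8.79% of 9186 promoters of tested genes and 6.05% of 27025 promoters in all. It was present in 3 of 12 amino acid carriers, namely Slc38a5, Slc38a7 and Slc43a1. Of the 12 members lower with dTAG13 that had a promoter, 2 held it (16.7%). The response element core was present in 2 of 90 members (2.22%), which were Slc7a7 and the sugar carrier gene Slc50a1, against 1.91% of promoters of tested genes. A metal response element core (TGCACNC or TGCGCNC) was present in 25 of 90 members (27.8%), against 30.9% of promoters of tested genes, and in 5 of 12 metal carriers. In the members no match of 1 motif overlapped a match of another. Such matches are descriptions of sequence, and binding was not measured.

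Levels per length differed between classes. Slc25a5, which encodes the ADP/ATP exchanger ANT2, was the highest member in each library. Its FPKM ran from 1745 and 1831 in the OE libraries of day 6 to 2502 and 2666 in the EV libraries of day 2. Its close relative Slc25a4 (ANT1) came next among mitochondrial carriers, at 344 to 657 FPKM over the 12 libraries. These exchangers bring ADP into mitochondria and ATP out. As their transcripts are similar, fragments could be divided between them in ways the table does not show.

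Among amino acid carriers, Slc7a3, a cationic amino acid transporter, ranged from 34.9 to 171 FPKM and Slc38a4, a neutral and cationic carrier, from 51.6 to 188. Both had the highest mean levels of the amino acid carriers kept. Slc29a1, the equilibrative nucleoside transporter ENT1, read 155 to 293 FPKM, and Slc19a2, a thiamine transporter, read 42.5 to 109. For inorganic ions the highest were Slc20a2, a sodium-phosphate cotransporter (43.1 to 87.8 FPKM), and Slc12a7, a potassium-chloride cotransporter (27.8 to 88.5 FPKM). Slc39a7, a zinc carrier of the endoplasmic reticulum, read 70.9 to 121 FPKM, and Slc39a4, the zinc carrier of gut uptake, 27.1 to 44.9. The nucleotide sugar carriers were led by Slc35a4 (29.7 to 81.2 FPKM) and the CMP-sialic acid carrier Slc35a1 (13 to 26.1). Among the sugar carriers kept, the highest were Slc50a1 (12.8 to 35.3 FPKM) and the intracellular glucose carrier Slc2a8 (8.54 to 31.8).

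Of the 126 genes, 67 reached 5 FPKM in all 12 libraries. Another 9 reached it in 1 group only, among them Slc22a5, Slc34a3, Slc38a5, Slc47a1, Slc6a8 and Slc7a1. Such genes entered through the group in which they were high. They are counted below as a description only.

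The comparison of OE with EV cells asks how the solute carriers differ where Tex10 RNA was raised. At day 2 the iron exporter gene and a pair of mitochondrial carrier genes were lower in OE. A change here is an adjusted p (limma, Benjamini-Hochberg over 12059 genes) below 0.05, and differences are of log2(FPKM + 1), a scale on which low genes appear to change less than they do. By that rule 0 members rose and 3 fell, where 0.846% of all genes tested passed (0.44% upward, 0.406% downward). Here and below, members had to reach 5 FPKM and the genes tested only 1 FPKM. The shares therefore rest on unlike filters, and the effect of that was not tested. Genes named by size of change also had to have groups without overlap, so lack of overlap is no further support for them. It held for 73 of the 126 members here, and for 72 in DMSO against EV, where 0 passed. Shares over all genes tested are not given, so these counts are no result about the members. Slc40a1 (chromosome 1, 45908068 to 45926523, minus strand) read 12.4 and 16.3 FPKM in EV and 4.17 and 3.59 in OE. The groups did not overlap, and the difference was -1.64 (SE 0.22, adjusted p = 0.0117). Slc25a4 (chromosome 8, 46206797 to 46211284, minus strand) read 585 and 657 FPKM in EV and 361 and 344 in OE, again without overlap. Its difference was -0.81 (SE 0.10, adjusted p = 0.0094).

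Slc25a20 (chromosome 9, 108662088 to 108684641, plus strand) encodes the carnitine-acylcarnitine carrier, which brings fatty acids into mitochondria for oxidation. It read 88.8 and 91 FPKM in EV and 55.6 and 46.6 in OE, a difference of -0.81 (SE 0.13, adjusted p = 0.0288). Over the 126 genes the median difference was 0.02, against 0.04 over all genes tested. Amino acid carriers had a median of 0.13, and 0 of 18 passed. Without dTAG13 library 1, 26 members passed (15 higher, 11 lower), where 14.1% of all genes did, and 5 of the 15 higher ones were amino acid carriers. With EV library 1 left out 1 member passed, and with EV library 2 or either OE library left out 0 did. Neural ectoderm markers summed to 96.4 to 108 FPKM in EV and 124 to 131 in OE (4 of 6 in the table, mostly Tubb3), and their part in the result was not tested.

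**Figure D1:**
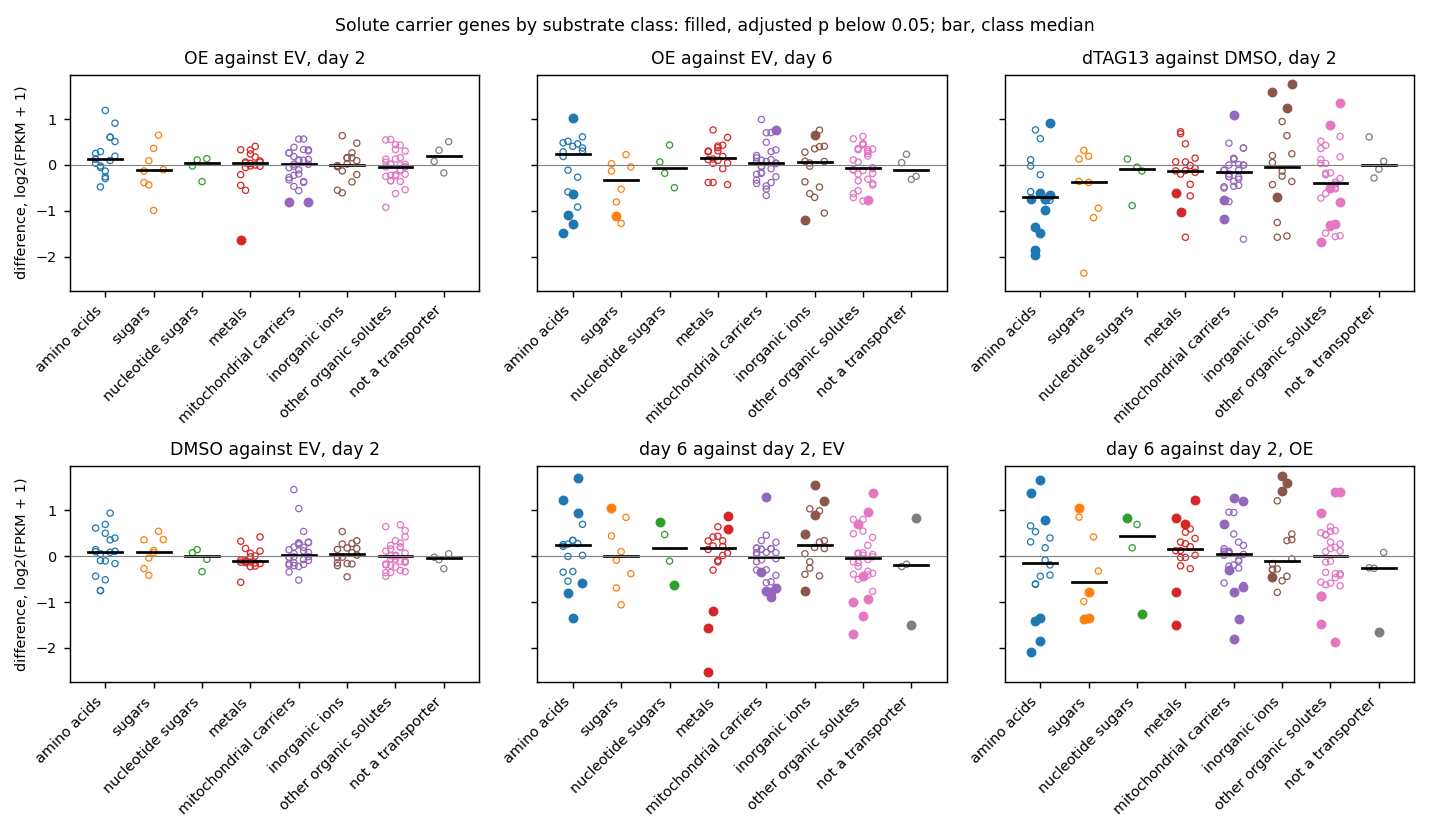
Difference of each of the 126 genes in log2(FPKM + 1) (vertical axis) by substrate class (horizontal axis) in 6 comparisons; filled points have an adjusted p below 0.05 and bars are class medians. With dTAG13 the amino acid class has a median of -0.70 and 10 of its 18 points are filled below 0.

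Day 6 cells differed more. With OE 3 members rose and 7 fell (7.94% of the 126), where 3.72% of all genes passed (1.92% upward, 1.79% downward). The 10 included 5 amino acid carriers, of which 4 fell. Members were again held to the higher level filter. Slc7a3 (chromosome X, 101079210 to 101086020, minus strand) read 91.7 and 130 FPKM in EV and 41.8 and 34.9 in OE. Both OE libraries lay below both EV libraries, with a difference of -1.49 (SE 0.21, adjusted p = 0.00703). At day 2 Slc7a3 had stood at 140 and 138 FPKM in EV and 171 and 161 in OE (0.25, adjusted p = 0.758).

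Slc6a15, a neutral amino acid carrier known mainly from neurons, read 6.07 and 8.82 FPKM in EV and 2.24 and 2.63 in OE (-1.28, SE 0.22, adjusted p = 0.0157). Slc7a7, the light chain of the y+LAT1 exchanger for cationic amino acids, read 21.7 and 27.5 FPKM in EV and 15.4 and 15.3 in OE (-0.64, SE 0.14, adjusted p = 0.0328). In both genes the EV and OE libraries did not overlap.

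Slc38a4 moved the other way. This gene (chromosome 15, 96994820 to 97055956, minus strand) lies beside Slc38a1 and Slc38a2 and read 85 and 87.9 FPKM in EV and 188 and 167 in OE. OE was higher by 1.03 (SE 0.20, adjusted p = 0.0239), without overlap. The day 2 values were 65.6 and 70.4 FPKM in EV and 58.8 and 51.6 in OE, so both day 2 OE libraries lay below EV (-0.30, adjusted p = 0.654).

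Outside the amino acid class, Slc12a7 read 57.6 and 53 FPKM in EV and 87.8 and 88.5 in OE (0.66, SE 0.11, adjusted p = 0.0141). Slc25a39, a carrier linked to mitochondrial glutathione uptake, read 223 and 201 FPKM in EV and 376 and 348 in OE (0.77, SE 0.18, adjusted p = 0.0418). Slc4a11, a borate-transporter-like carrier that conducts protons and ammonia, read 32.1 and 37.6 FPKM in EV and 14.2 and 15 in OE (-1.20, SE 0.14, adjusted p = 0.00381). All 3 had groups that did not overlap. So did 97 of the 126 members at day 6, with no share over all genes to set beside that count. With the replicate number as a block Slc25a39 did not pass (adjusted p = 0.0648), nor did it with a pseudocount of 0.1 (adjusted p = 0.0582) or with median-ratio scaling (adjusted p = 0.105).

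Slc5a11, a sodium-coupled inositol carrier, read 6.99 and 8.24 FPKM in EV and 3.22 and 2.77 in OE (-1.11, SE 0.24, adjusted p = 0.0345). Slc5a6, the sodium-dependent multivitamin transporter for biotin and pantothenate, read 9.67 and 10.3 FPKM in EV and 5.52 and 5.44 in OE (-0.76, SE 0.17, adjusted p = 0.0349), and with the block it did not pass (adjusted p = 0.0533). None of the 18 metal carriers passed, and Slc40a1, which was lower at day 2, read 1.72 and 1.56 FPKM in EV and 2.04 and 1.69 in OE. The exons of Slc5a6 overlap Atraid, and those of Slc7a7 overlap Oxa1l, on the opposite strand. As the strand used in counting is not given, fragments of such pairs could not be told apart.

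The median difference of the 126 genes at day 6 was 0.04, against 0.05 over all genes. Without dTAG13 library 1, 55 members passed (24 higher, 31 lower), where 25.4% of all genes did. With day 6 EV library 1 left out 2 passed, and with EV library 2 or either OE library left out 0 did. Marker lists for other cells also differed at day 6. That for endothelium and blood summed to 66.2 to 76.2 FPKM in EV and 111 to 114 in OE (3 of 7 genes in the table, nearly all Pecam1), and that for neural ectoderm to 67.9 to 70.7 and 48.8 to 50.9 (4 of 6 in the table, mostly Tubb3). The PGCLC list, with all 12 genes in the table, summed to 1340 to 1384 FPKM for EV libraries against 1600 to 1614 for OE. Its genes did not all move alike. Nanos3 (9.22 and 6.29 FPKM for EV, 3.89 and 2.84 for OE) and Pou5f1 (780 and 810, then 773 and 766) were lower with OE. Sox2, Prdm1 and Dnd1 overlapped between the groups. The rest were higher with OE, among them Kit (46.7 and 41.4 FPKM for EV, 96 and 92.6 for OE). Their part in the result was not tested.

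**Figure D2:**
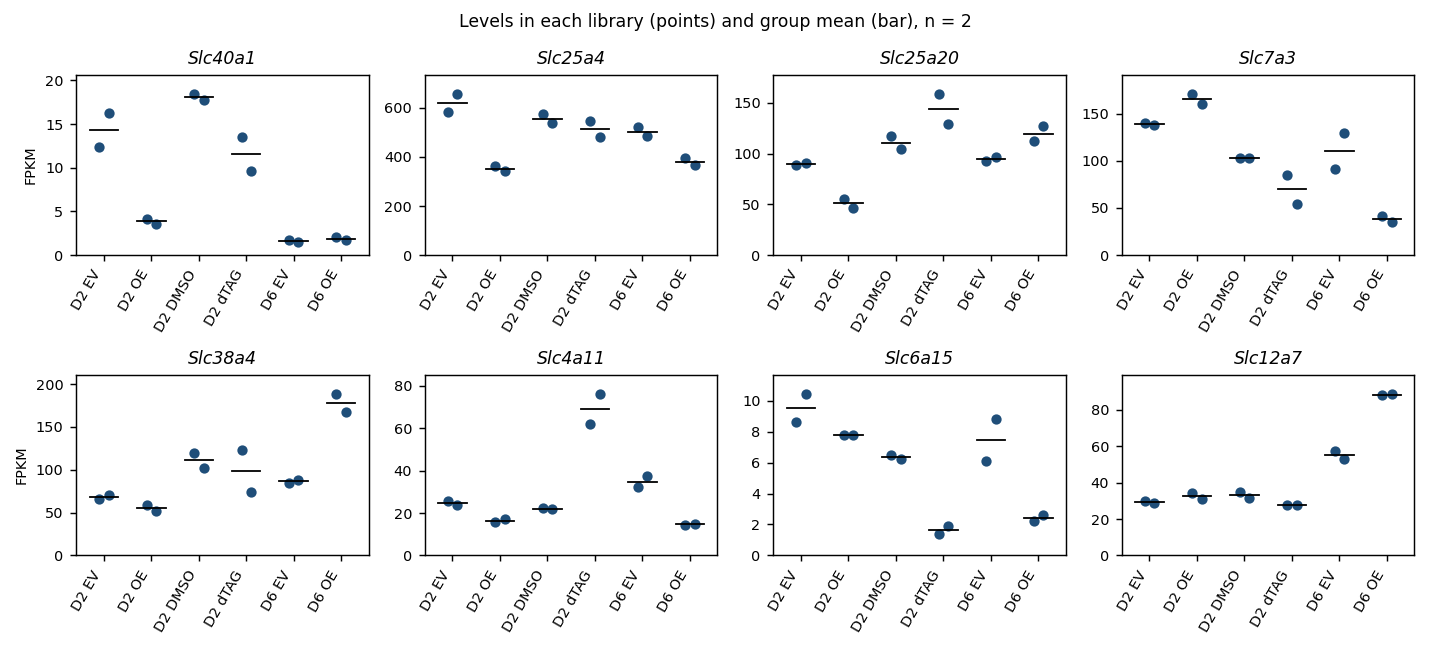
FPKM (vertical axis) of 8 members in the 6 groups (horizontal axis); points are libraries and bars are group means of 2. Slc40a1 is at 12.4 to 18.4 in day 2 EV and DMSO and at 1.56 to 2.04 at day 6, and Slc4a11 is highest with dTAG13 (62 and 76).

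The day 2 and day 6 effects of OE were compared directly. Of the 126 genes 0 passed that test by limma, where 0.232% of all genes did (0.0663% upward, 0.166% downward). An unadjusted p below 0.05 was reached by 26 members (20.6%, against 10.8% of all genes, which passed a lower level filter). The 2 smallest adjusted p belonged to Slc25a20, whose OE difference was higher at day 6 than at day 2 by 1.14 (SE 0.19, adjusted p = 0.0546), and to Slc7a3, whose difference was -1.74 (SE 0.29, adjusted p = 0.0551). Slc40a1 stood at 1.76 (adjusted p = 0.0654). Without dTAG13 library 1, 30 members passed (12 higher, 18 lower), where 11.1% of all genes did, and with any 1 library of these 4 groups left out 0 did. No member passed at both days, where over all genes 38 of the 102 that passed at day 2 also did at day 6 (37.3%). Only 3 members passed at day 2, and the lack of shared members alone does not show that the effects differ.

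The comparison of dTAG13 with DMSO asks how the carriers stood where the degrader was given. In the model of all groups amino acid carriers were lower, with 10 of 18 falling and 1 rising. The class median was -0.70 against -0.13 over all genes tested. That model shares its spread over all groups, and the dTAG13 pair was the widest. Its median SD over members was 0.418, against 0.0776 to 0.0936 in the other pairs. In a fit of only the DMSO and dTAG13 groups no member passed. Over all 126 genes 7 rose and 20 fell (21.4%), where 12.2% of all genes passed, 4.01% upward and 8.21% downward. Members had to reach 5 FPKM and the genes tested only 1 FPKM, so these shares rest on unlike filters. Slc7a6, the light chain of the y+LAT2 exchanger, read 9.18 and 8.72 FPKM with DMSO and 0.251 and 4.14 with dTAG13. The groups did not overlap, but the pair of dTAG13 libraries lay far apart (-1.97, SE 0.50, adjusted p = 0.0341). With library 2 as the only dTAG13 library the difference was -0.95.

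Slc6a15 read 6.48 and 6.23 FPKM with DMSO and 1.4 and 1.92 with dTAG13 (-1.47, SE 0.22, adjusted p = 0.00421). Slc1a3, the glutamate and aspartate transporter GLAST, read 6.86 and 6.13 FPKM with DMSO and 1.05 and 3.15 with dTAG13 (-1.36, SE 0.29, adjusted p = 0.0181). With library 2 as the only dTAG13 library its difference was -0.85. In both genes the dTAG13 libraries lay below both DMSO libraries. Slc38a5, a glutamine carrier, was low with DMSO, at 0.885 and 1.53 FPKM, and was listed at 0 and read 0.218 with dTAG13 (-0.99, adjusted p = 0.0236).

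Further falls were in carriers with higher levels. Slc38a10 read 44.9 and 44 FPKM with DMSO and 24.6 and 27.9 with dTAG13 (-0.74, SE 0.12, adjusted p = 0.00635). Slc1a5, the glutamine carrier ASCT2, read 28.1 and 31 FPKM with DMSO and 20.7 and 14.5 with dTAG13 (-0.74, adjusted p = 0.0257). Slc7a7 read 56.4 and 61.5 FPKM with DMSO and 39.4 and 37.2 with dTAG13 (-0.61, adjusted p = 0.0215). The groups did not overlap in any of them. Slc6a6, the taurine transporter, read 17.4 and 15.4 FPKM with DMSO and 10.1 and 8.66 with dTAG13 (-0.75, adjusted p = 0.0233), and Slc38a1, the glutamine carrier SNAT1, read 14.8 and 14.2 against 9.49 and 8.2 (-0.66, adjusted p = 0.0285).

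Values for other carriers of the class differed with and without dTAG13 library 1. Slc38a7, a lysosomal glutamine carrier, was higher, at 13.2 and 11.1 FPKM with DMSO and 32.1 and 17.2 with dTAG13 (0.91, SE 0.26, adjusted p = 0.0481). Without library 1, which leaves a lone dTAG13 library, it stood at 0.48. Slc38a2, the glutamine carrier SNAT2 that is known to be induced by amino acid shortage, read 48 and 42.6 FPKM with DMSO and 109 and 55.1 with dTAG13 (0.76, adjusted p = 0.0674), and without library 1 its difference was 0.28. Slc7a3 read 103 and 103 FPKM against 84.8 and 54.7 (-0.58, adjusted p = 0.0921), and without library 1 its difference was -0.89. Slc38a4 read 120 and 102 FPKM against 123 and 74.1, so its groups overlapped, and without library 1 its difference was -0.57.

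**Figure D3:**
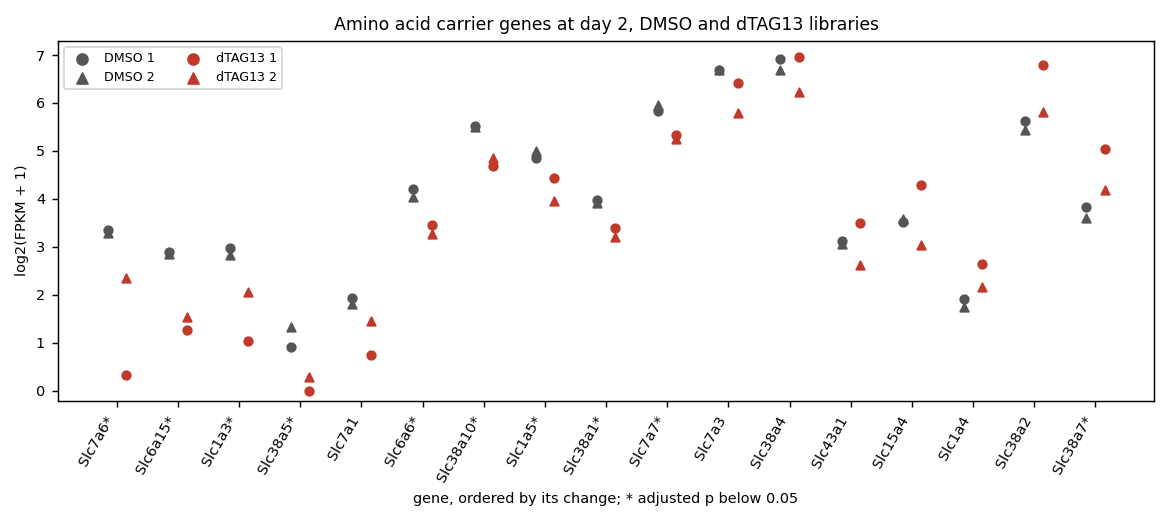
log2(FPKM + 1) (vertical axis) of 17 of the 18 amino acid carrier genes, ordered by their difference (horizontal axis), in 2 DMSO and 2 dTAG13 libraries at day 2; stars mark an adjusted p below 0.05. The 9 starred genes that fell have both dTAG13 points below both DMSO points, and the pair of dTAG13 points is wide in Slc7a6 and narrow in Slc7a7.

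Rises included ion carriers. Slc4a11 (chromosome 2, 130684113 to 130697519, minus strand) read 22.3 and 21.9 FPKM with DMSO and 62 and 76 with dTAG13 (1.59, SE 0.14, adjusted p = 0.000377). Slc26a2, a sulfate transporter, read 8.31 and 6.87 FPKM with DMSO and 25.7 and 14.5 with dTAG13 (1.25, SE 0.26, adjusted p = 0.0156). All dTAG13 values lay above all DMSO values in both genes. Slc34a3, a renal sodium-phosphate cotransporter, read 1.55 and 1.38 FPKM with DMSO and 9.89 and 5.37 with dTAG13. It reached 5 FPKM with dTAG13 alone and is a member through that group, so its values here are a description with no test.

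Other rises were in carriers of organic solutes and in the Slc25 family. Slc27a3, a fatty acid transport protein, read 17.1 and 18.1 FPKM with DMSO and 58.4 and 36.8 with dTAG13 (1.35, SE 0.20, adjusted p = 0.0036). Slc25a17, a member of that family found in peroxisomes, read 60.4 and 61.5 FPKM with DMSO and 126 and 136 with dTAG13 (1.09, SE 0.11, adjusted p = 0.000567). Slc19a2 read 52.2 and 49.3 FPKM with DMSO and 109 and 80.3 with dTAG13 (0.87, SE 0.15, adjusted p = 0.00747). The groups overlapped in none of the 3, and the Slc25a17 libraries of each group lay close together.

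Of the falls outside the amino acid class, Slc47a1, a proton-coupled exporter of organic cations, read 3.89 and 3.73 FPKM with DMSO, was listed at 0 in dTAG13 library 1 and read 1.23 in library 2 (-1.69, SE 0.32, adjusted p = 0.012), and without library 1 the difference was -1.11 (adjusted p = 0.00107). Slc16a1, the lactate and pyruvate transporter MCT1, read 21.4 and 20.3 FPKM with DMSO and 6.61 and 9.09 with dTAG13 (-1.32, SE 0.15, adjusted p = 0.00131). Its upstream window, printed above, holds the E-box farthest from the start of those shown. Slc25a22, a mitochondrial glutamate carrier, read 14.2 and 12.8 FPKM with DMSO and 3.18 and 8.86 with dTAG13 (-1.18, adjusted p = 0.0409), and without library 1 the difference was -0.56. The copper importer gene Slc31a1 read 22.9 and 22.7 FPKM against 15.9 and 13.4 (-0.61, adjusted p = 0.029), and the magnesium carrier gene Slc41a1 10.3 and 8.53 against 3.4 and 4.89 (-1.03, adjusted p = 0.00996). No sugar or nucleotide sugar carrier among those kept passed. Slc12a8 and Slc22a7 were listed at 0 in dTAG13 library 1 and read 6.3 and 4.94 FPKM in library 2, near their DMSO values, with differences of -1.55 and -1.54 that did not pass. Without library 1 these were -0.12 and -0.26.

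Of the 27 members that passed, 5 are among those that reached 5 FPKM in 1 group only. Leaving out a library of these groups leaves 1 in its group, whose spread is then taken from other groups. The counts from such fits show only how far the result depends on the library. Without dTAG13 library 1, 45 members passed (7 higher, 38 lower), where 23.3% of all genes did (6.25% upward and 17% downward), and 12 amino acid carriers were lower and 0 higher. Without dTAG13 library 2, 83 members passed, with 11 amino acid carriers lower. With either DMSO library left out 7 members passed, 2 of them amino acid carriers that were lower, and in a fit of only these 2 groups 0 members passed. In these 2 groups, summed markers for mesoderm read 5.50 to 6.92 FPKM with DMSO and 7.94 to 12.5 with dTAG13 (5 of 8 in the table, mostly Hand1, with Eomes, Kdr, Mixl1 and Tbx6 at 0 in dTAG13 library 1). Those for trophoblast and amnion read 7.06 to 8.54 FPKM and 10.6 to 25 (3 of 6 in the table, Krt7 at 0 in library 1 and 12.6 in library 2). Markers for neural ectoderm went in both directions. Tubb3 read 77.6 and 74.5 FPKM with DMSO against 42.7 and 56.7 with dTAG13, and Neurod1 read 1.2 and 0.964 against 11.6 and 7.83. Their part in the result was not tested.

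The 10 members that passed for OE at day 6 and the 27 for dTAG13, comparisons that share no library, had 4 in common (40% of the 10 and 14.8% of the 27). Over all genes tested the same 2 comparisons shared 116 (25.9% of 448 and 7.88% of 1473), of which 44 (37.9%) moved in the same direction. Whether the members differ from that was not tested. Among the shared members, Slc6a15 and Slc7a7 were lower in both. Slc4a11 was lower with OE and higher with dTAG13. Its 12 values placed the dTAG13 libraries first and the day 6 OE libraries last, with day 2 OE next to last at 15.7 and 17.2 FPKM.

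**Figure D4:**
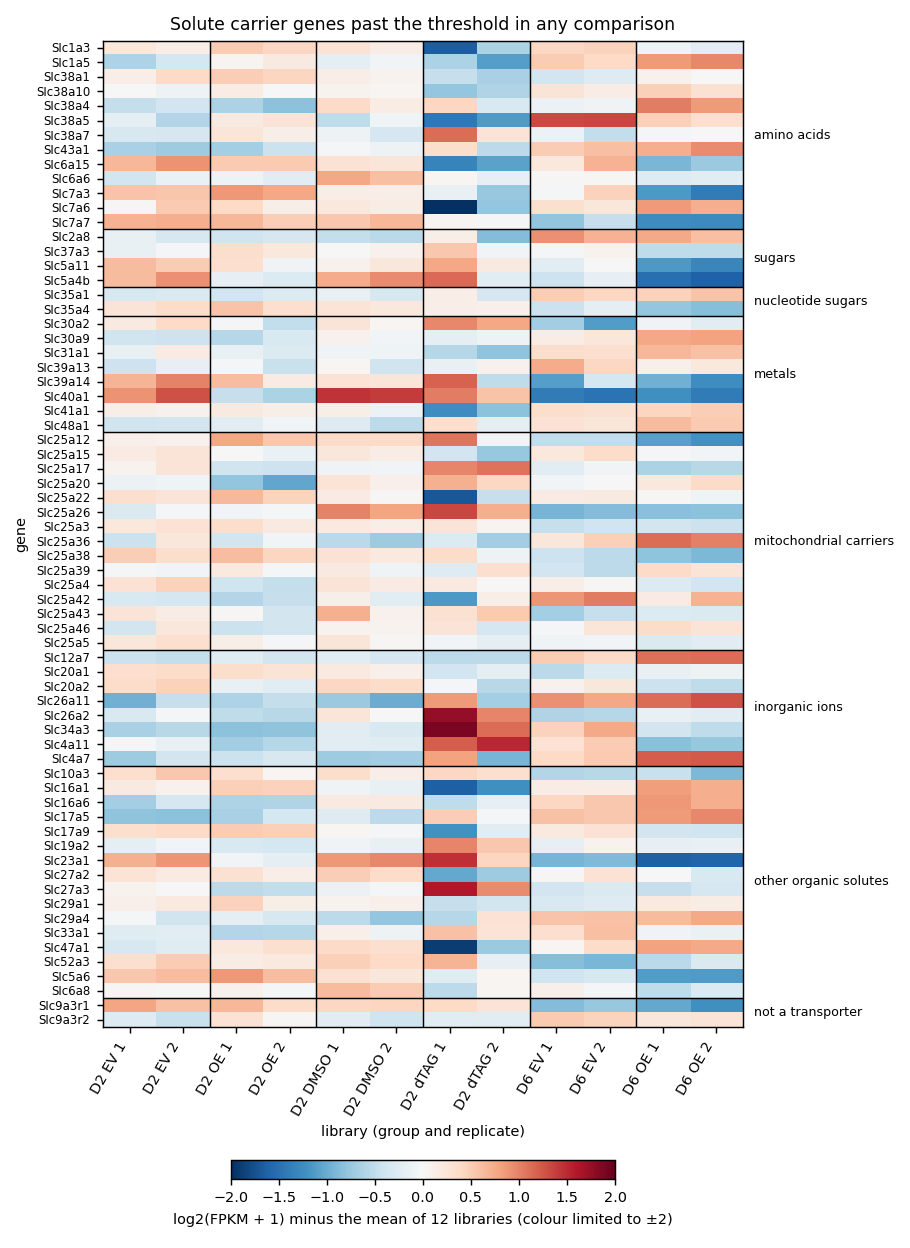
log2(FPKM + 1) of 68 of the 69 members past the threshold in any comparison, each minus its mean over 12 libraries (colour, limited to 2 in each direction), by library (horizontal axis) and gene, grouped by class (vertical axis). Slc7a3, Slc7a7 and Slc5a6 are lowest in the day 6 OE columns, and Slc40a1 is highest in the day 2 EV and DMSO columns.

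From day 2 to day 6, the genes for the iron exporter (Slc40a1), a zinc and iron importer (Slc39a14) and the y+LAT1 exchanger (Slc7a7) fell in both kinds of cell. Carriers of sulfate (Slc26a11), sialic acid (Slc17a5) and large neutral amino acids (Slc43a1) rose in both. In EV cells 16 members rose and 19 fell (27.8%), where 23.7% of all genes passed (13.3% upward, 10.5% downward). In OE cells 17 rose and 21 fell (30.2%), where 32.3% of all genes passed (17.5% upward, 14.7% downward), so both shares lay near the background. The pair of comparisons shares no library, and 23 members passed in both (65.7% of 35 and 60.5% of 38), all in the same direction. Over all genes tested 2135 passed in both (74.6% of 2863 and 54.9% of 3890), 99.4% of them in the same direction, so the members' overlap also lay near the background.

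Slc40a1 fell furthest in EV cells, from 12.4 and 16.3 FPKM to 1.72 and 1.56 (-2.53, SE 0.22, adjusted p = 0.000106). In OE cells, which started at 4.17 and 3.59 FPKM, it reached 2.04 and 1.69 (-0.77, adjusted p = 0.0243). Slc39a14, a zinc and iron importer, read 11.6 and 14.5 FPKM at day 2 and 2.66 and 5.13 at day 6 in EV cells (-1.56, SE 0.47, adjusted p = 0.0371) and 11 and 7.79 against 3.01 and 2.3 in OE cells (-1.50, adjusted p = 0.034). Neither gene had overlapping days in either kind of cell.

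Slc7a7 was also lower at day 6 in both, from 62.4 and 64.1 FPKM to 21.7 and 27.5 in EV cells (-1.34, SE 0.14, adjusted p = 0.000243) and from 61.1 and 54.2 to 15.4 and 15.3 in OE cells (-1.84, adjusted p = 2.5e-05). Slc23a1, a sodium-dependent vitamin C transporter, went from 5.54 and 6.42 FPKM to 1.11 and 1.18 in EV cells (-1.70, SE 0.30, adjusted p = 0.00325). Slc52a3, a riboflavin transporter, went from 21.1 and 23.9 FPKM to 8.76 and 8.34 (-1.30, SE 0.24, adjusted p = 0.00432). The days did not overlap in these genes. The scaffold gene Slc9a3r1 (NHERF1), a member by name only, went from 124 and 107 FPKM to 38.5 and 41.4 in EV cells (-1.50, adjusted p = 0.000113) and from 113 and 92 to 34.2 and 29.7 in OE cells (-1.64, adjusted p = 3.67e-05).

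Among the rises, Slc26a11, a sulfate and anion carrier, went from 0.843 and 1.61 FPKM to 5.77 and 5.12 in EV cells (1.55, SE 0.41, adjusted p = 0.0224) and from 1.34 and 1.57 to 6.8 and 7.66 in OE cells (1.74, adjusted p = 0.00964). Slc17a5, the lysosomal sialic acid exporter, went from 1.8 and 1.75 FPKM to 6.3 and 6.05 in EV cells (1.37, SE 0.23, adjusted p = 0.00271) and from 2.1 and 2.8 to 7.74 and 8.52 in OE cells (1.41, adjusted p = 0.00144). In both genes the day 6 libraries lay above the day 2 libraries. Slc38a5 read 1.37 and 0.783 FPKM at day 2 and 5.67 and 5.76 at day 6 in EV cells, and 2.05 and 2.2 and then 2.75 and 2.37 in OE cells. It is a member through day 6 EV alone, so its EV values are a description with no test.

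Slc43a1, a carrier of large neutral amino acids, went from 4.68 and 4.44 FPKM to 11.6 and 12.6 in EV cells (1.23, SE 0.27, adjusted p = 0.00862). Slc25a42, a mitochondrial coenzyme A carrier, went from 3.72 and 3.56 FPKM to 9.67 and 11 there (1.28, SE 0.37, adjusted p = 0.0303). Slc34a3 went from 0.883 and 1.02 FPKM to 3.06 and 3.96 (1.20, SE 0.26, adjusted p = 0.00799). None of the 3 had overlapping days.

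Some genes led the day comparison in OE cells. Slc7a3 went from 171 and 161 FPKM to 41.8 and 34.9 (-2.09, SE 0.21, adjusted p = 9.77e-05), where EV cells read 140 and 138 and then 91.7 and 130 (-0.35, adjusted p = 0.262). Slc5a6 went from 24.7 and 20.7 FPKM to 5.52 and 5.44 (-1.86, SE 0.17, adjusted p = 5.63e-05), against 19.5 and 20.7 and then 9.67 and 10.3 in EV cells (-0.94, adjusted p = 0.00337). Slc25a12, the mitochondrial aspartate-glutamate carrier aralar, went from 42.6 and 35.9 FPKM to 11 and 9.97 (-1.81, SE 0.29, adjusted p = 0.00123). The difference between cells in these changes is the comparison of OE effects above, in which none of them passed.

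Rises in OE cells were led by transporters of ions and organic acids beside Slc38a4, which went from 58.8 and 51.6 FPKM to 188 and 167 (1.67, SE 0.20, adjusted p = 0.000269). Slc4a7, a sodium-bicarbonate cotransporter, went from 1.8 and 2 FPKM to 7.67 and 7.82 (1.59, SE 0.43, adjusted p = 0.0194). Slc12a7 went from 34 and 30.9 FPKM to 87.8 and 88.5 (1.41, SE 0.11, adjusted p = 3.45e-05), and Slc16a6, a monocarboxylate transporter family member, from 2.55 and 2.55 to 8.91 and 7.97 (1.41, SE 0.21, adjusted p = 0.000872). All had day 6 libraries above day 2 libraries. The exons of Slc16a6 overlap Amz2 and Arsg on the opposite strand.

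Both counts were higher without dTAG13 library 1. In that fit 67 members passed in EV cells (32 higher, 35 lower), where 52.2% of all genes did, and 84 passed in OE cells (41 higher, 43 lower), where 59% did. With any 1 of the libraries compared left out, 17 to 19 members passed in EV cells and 22 to 26 in OE cells. Of the marker lists, that for endothelium and blood rose with day, from 32.3 to 33.7 FPKM at day 2 to 66.2 to 76.2 at day 6 in EV cells and from 36.5 to 39.8 to 111 to 114 in OE cells. It had 3 of 7 genes in the table, and nearly all of the sum was Pecam1. Tubb3 went the other way, from 101 and 88.4 FPKM to 65.7 and 63.2 in EV cells, while Nes, also of the neural ectoderm list, went from 1.75 and 1.42 to 3.24 and 2.25. Their part in the day differences was not tested.

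DMSO cells and EV cells at day 2 each served as the reference of a comparison above, and they were set side by side to show how they differ. Tex10 RNA itself read 61.7 and 56.8 FPKM with DMSO against 119 and 145 in EV, and the labels describe no other difference than the DMSO. By limma 0 members passed (14, or 11.1%, had an unadjusted p below 0.05, against 8.92% of all genes), where 0.39% of all genes passed (0.249% upward, 0.141% downward). The 2 members with the smallest adjusted p by this measure were Slc6a6, at 7.38 and 8.81 FPKM in EV and 17.4 and 15.4 with DMSO (0.94, SE 0.17, adjusted p = 0.0613), and Slc25a26, a mitochondrial S-adenosylmethionine carrier, at 3.94 and 4.96 in EV and 10.9 and 9.41 with DMSO (1.04, SE 0.23, adjusted p = 0.14). The groups did not overlap in either gene. Without dTAG13 library 1, 12 members passed (10 higher, 2 lower), where 8.1% of all genes did.

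Both genes lie on chromosome 6, where neighbouring genes were also higher with DMSO. Around each member the 16 nearest tested genes, 8 on each side, gave a median difference, which over the 126 members ran from -0.10 to 0.15 between the 5th and 95th percentile for DMSO against EV. It was 0.83 around Slc6a6 (chromosome 6, 91684053 to 91759066) and 0.73 around Slc25a26 (chromosome 6, 94500331 to 94604672, with exons that overlap Lrig1). In OE against EV the same held on chromosome 8. Around Slc25a4, whose own difference was -0.81 at day 2, the neighbours stood at -0.45, with 15 of 16 below 0, and at day 6 they stood at -0.37 beside a value of -0.40 for Slc25a4. Around Slc20a2, whose OE differences were -0.61 (day 2, adjusted p = 0.123) and -0.63 (day 6, adjusted p = 0.0543), they stood at -0.42 and -0.43. Around Slc25a15, the mitochondrial ornithine carrier gene, they stood at -0.55 and -0.43, with own values of -0.27 and -0.33.

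Around 4 other members that passed with OE the neighbours stood nearer 0. The neighbours of Slc40a1 had a median of -0.02 at day 2, those of Slc25a20 0.11, and at day 6 those of Slc7a3 0.03, and those of Slc38a4 0.02. Around Slc4a11, itself lower at day 6 (-1.20), the neighbours were higher, at 0.26. Over all 126 members the neighbours' median ran from -0.17 to 0.23 between the 5th and 95th percentile for OE at day 2 and from -0.17 to 0.25 at day 6, so the value around Slc4a11 lay just above that range.

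**Figure D5:**
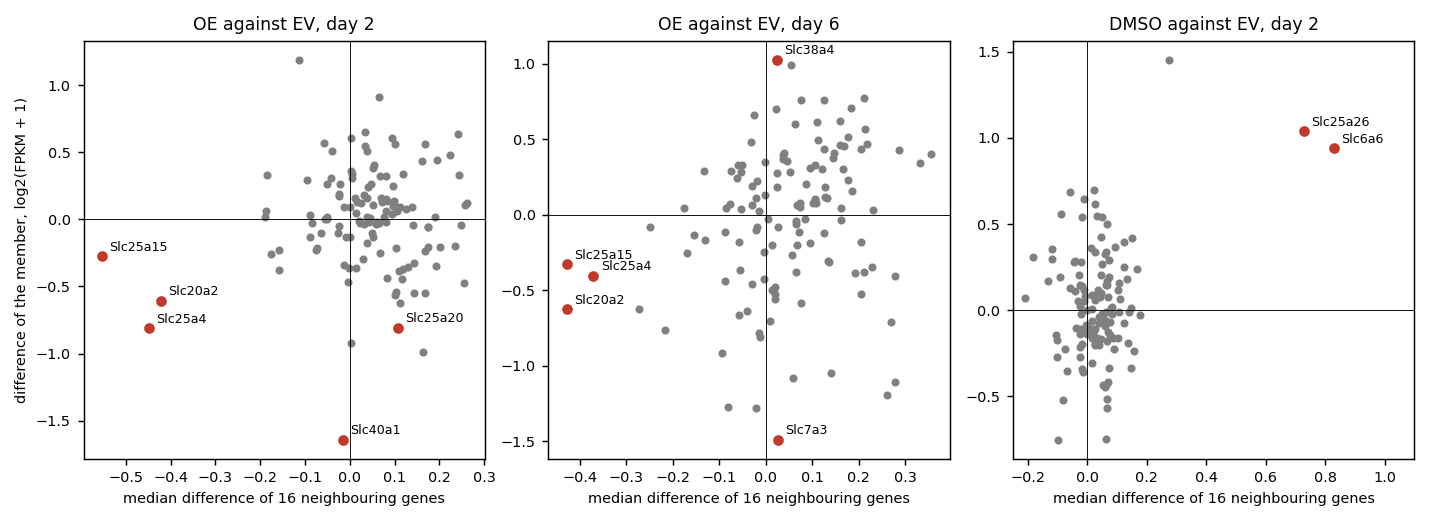
Difference of each of the 126 genes in log2(FPKM + 1) (vertical axis) against the median difference of the 16 tested genes nearest to it on its chromosome (horizontal axis) in 3 comparisons. Slc25a4, Slc20a2 and Slc25a15 sit at the left in both OE panels, Slc6a6 and Slc25a26 at the right for DMSO, and Slc40a1, Slc25a20, Slc7a3 and Slc38a4 near 0 on the horizontal axis.

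Genes around the carriers were read from 3 lists, chosen with earlier results of these data known. Their counts are therefore a description and no independent support. The amino acid response list holds genes that cells are known to induce when amino acids run short, mostly targets of ATF4, and 21 of its 23 genes were tested. With OE at day 2, 5 rose and 0 fell, where 0.44% of all genes tested rose and 0.406% fell. Among the 5 were Trib3, a pseudokinase (7.71 and 7.1 FPKM in EV, 31.9 and 31.4 in OE, 1.96, adjusted p = 0.00179), Aldh18a1, an enzyme of proline synthesis (12.6 and 10.8 against 36.3 and 34.4, 1.52, adjusted p = 0.0292), and Psat1, an enzyme of serine synthesis (79.1 and 79.2 against 158 and 150, 0.95, adjusted p = 0.0253). The list's median was 0.56, against 0.04 over all genes, and 0 of the 18 amino acid carriers passed in that comparison. Slc7a5, Slc3a2 and Slc7a11 were left out by name and are not among the 18. Of the 18, 12 stood above 0 and 6 below, and Slc38a4 (-0.30) and Slc38a2 (-0.05) were among those below. The carrier nearest to the threshold was Slc1a4, a neutral amino acid carrier, at 1.7 and 1.34 FPKM in EV and 5.27 and 4.25 in OE (1.19, adjusted p = 0.0508), the highest difference of the 126 genes. Slc7a1, a cationic amino acid carrier (0.91, adjusted p = 0.147), and Slc1a5 (0.61, adjusted p = 0.165) also stood above 0. Without dTAG13 library 1 these 3 passed, at adjusted p of 0.000599, 0.00193 and 0.00572. At day 6 with OE 2 of the 21 genes of the list rose and 1 fell, where 1.92% of all genes rose and 1.79% fell.

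With dTAG13 4 genes of that list rose, among them Ddit3, the stress factor CHOP (6.81 and 7 FPKM with DMSO, 26 and 28.2 with dTAG13, 1.83, adjusted p = 0.000244), and 1 fell, with a list median of -0.18 beside the carriers' -0.70. In that comparison 4.01% of all genes tested rose and 8.21% fell. From day 2 to day 6, 7 of the 21 rose and 2 fell in EV cells, where 13.3% of all genes rose and 10.5% fell. In OE cells 4 rose and 9 fell, where 17.5% and 14.7% of all genes did.

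In the list for iron, zinc and copper handling, all 25 genes in the table were tested. Beside the fall of Slc40a1 with OE at day 2, 1 gene of it rose, Aco1, the iron regulatory protein IRP1 (16.3 and 15.3 FPKM in EV, 29.9 and 26.8 in OE, 0.81, adjusted p = 0.0271), and 0 fell. In that comparison 0.44% of all genes tested rose and 0.406% fell. Over time in EV cells 3 of the 25 rose and 8 fell, where 13.3% of all genes rose and 10.5% fell. Tfrc, the transferrin receptor for iron uptake, went from 48.7 and 61.3 FPKM to 126 and 145 (1.29, adjusted p = 0.000919), and Atox1, a copper chaperone, went from 791 and 802 to 381 and 355 (-1.11, adjusted p = 0.0004). Both moved beyond the spread of their libraries, as Slc40a1 did.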

How the data were processed

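The deposited table holds FPKM values by the authors with 1 added to each, per its values: the lowest is 1, and 90.1% of values between 1.1 and 2 have 7 or more digits against 0% of those from 2 to 10. The 1 was subtracted. Per the submitters' processing notes, FastQC 0.10.1, Trim Galore 0.6.3, cutadapt, STAR 2.7.6a and Cufflinks 2.2.1 were used with mm10. Depth, strand and annotation are not given in the sources used here, so the precision of low values is unknown. Positions came from GENCODE M21 by symbol (126 of 126 members). One member is included in the counts and medians, and its own values are not reported here.

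Genes with at least 1 FPKM in 2 libraries (12059) were tested on log2(FPKM + 1) with limma 3.58.1 in R 4.3.3. One model of all 6 groups had a trended prior, with 6 degrees of freedom from residuals and 3.86 from the prior. Changes were called at an adjusted p (Benjamini-Hochberg) below 0.05. The fit was tested on simulated data. Groups followed the labels. One title spells the compound differently, and the treatment field was used.

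Members and the 3 gene lists were chosen with earlier results of these data known. Named genes are, per comparison, up to 6 members per direction that passed with libraries that do not overlap, by size of change, or the 2 with the smallest adjusted p where none passed. Further named genes are the 2 highest members of each class, members listed at 0 in a library while averaging 5 FPKM elsewhere, and up to 3 changed genes per list. The other amino acid carriers in the dTAG13 comparison, Slc25a22, Slc31a1, Slc41a1, Slc25a15, the genes shared between comparisons and the values of a named gene in further comparisons were chosen after their values were seen. So were Slc1a4, Slc7a1 and Slc1a5 for OE at day 2. Alternatives were a replicate block, a pseudocount of 0.1, no filter on low values, scaling by median ratios, a fit of only those groups that were compared, and leaving out each library. Promoters were read from RefSeq tables, which held 90 of the 126. Figures were drawn with matplotlib 3.10.9, and tables handled with pandas 2.3.3 and numpy 2.4.6 in Python 3.11.15.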

Additional observations from a re-analysis of the deposited data

How the results depend on the processing

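In these settings no named value changed direction. With only the groups compared (2 residual degrees of freedom for a pair of groups), 24 members passed for OE at day 2, 60 for OE at day 6, 28 for the difference of the OE effects, 0 for dTAG13 (0 amino acid carriers lower), 59 for day in EV cells, 88 for day in OE cells and 7 for DMSO against EV. Median-ratio scaling gave 6 for OE at day 2, 1 for DMSO against EV and 4 for the difference of OE effects. Leaving out 1 library gave 0 to 26 members for OE at day 2, 0 to 55 for OE at day 6, 0 to 30 for the difference, 7 to 83 for dTAG13 (2 to 12 amino acid carriers lower), 17 to 67 for day in EV cells, 22 to 84 for day in OE cells and 0 to 12 for DMSO against EV. The highest counts came without dTAG13 library 1, or for dTAG13 without library 2. A lone remaining library was then taken to vary like the other groups. The cause was not tested.

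The labels do not say whether the replicate numbers pair the samples. Same-numbered deviations correlated at -0.135 to 0.252 between groups, which does not settle it with 2 libraries in each. With a replicate block 5 members passed for OE at day 2, and the other counts moved by less than 1.5 times. With crossed numbers, chosen after seeing the data, 6 members passed for OE at day 6 and 27 for dTAG13.

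Of the values of single named genes, 416 of 537 kept their side of the threshold, 110 lost it and 11 gained it. Slc25a39 at day 6 with OE passed narrowly and was lost under the pseudocount of 0.1, median-ratio scaling and the block. Depth is unknown, so a member listed at 0 cannot be called absent.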

Other observations

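Solute carriers that go by other names gave a further 31 tested genes of 43 listed. With OE at day 2, 0 rose and 1 fell, where 0.44% of all genes tested rose and 0.406% fell. The gene that fell was Mpc1, a subunit of the mitochondrial pyruvate carrier (45.4 and 48.6 FPKM in EV, 28.3 and 25.9 in OE, -0.77, limma adjusted p = 0.0435). At day 6 the same gene read 46.8 and 56.1 FPKM in EV and 37.7 and 43.1 in OE, so the groups were apart there too. With OE at day 6, Slc35f2, which takes up queuosine, rose (35.2 and 38.6 FPKM against 71 and 60, 0.81, adjusted p = 0.0462). Slco4a1, an organic anion carrier, fell (26.2 and 27.1 FPKM against 12.7 and 14.7, -0.92, adjusted p = 0.0152).

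Slco4a1 rose with dTAG13, from 14.2 and 13.4 FPKM with DMSO to 35.6 and 27.7 (1.13, adjusted p = 0.00304), so its directions were those of Slc4a11. Over time in EV cells 5 of the 31 rose and 1 fell, where 23.7% of all genes passed (13.3% upward, 10.5% downward), so their share lay near the background. Xpr1, the phosphate exporter, went from 2.17 and 2.25 FPKM to 4.81 and 5.73 (0.96, adjusted p = 0.00795), and Sfxn3, a mitochondrial serine carrier, from 1.41 and 1.79 to 4.92 and 5.32 (1.24, adjusted p = 0.0293). The days did not overlap in either gene. Spns1, a lysosomal lipid exporter, fell from 61.6 and 51 FPKM to 36.9 and 38.5 (-0.56, adjusted p = 0.032).

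The nucleoside carrier gene Slc29a1 was lower with dTAG13, at 226 and 229 FPKM with DMSO and 155 and 165 with dTAG13 (-0.50, adjusted p = 0.0222). From day 2 to day 6 in EV cells it went from 230 and 246 FPKM to 172 and 179 (-0.44, adjusted p = 0.0204), while in OE cells it read 293 and 231 and then 246 and 237, with days that overlapped (-0.11, adjusted p = 0.505). The nucleotide sugar carrier genes Slc35a1 and Slc35a4 moved in opposite directions with day. Slc35a1 read 13.5 and 13.9 FPKM at day 2 and 24.5 and 23.2 at day 6 in EV cells (0.75, adjusted p = 0.012). Slc35a4, whose exons overlap Apbb3 on the opposite strand, read 65.4 and 70.5 FPKM and then 40.1 and 47.4 (-0.63, adjusted p = 0.00578).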
